A study of Ovis aries with 16 samples.

Results

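DNA methylation around the myostatin gene (MSTN) was mapped in longissimus dorsi (LD) muscle of 16 sheep fetuses. Every peak overlapping chr2:118050000-118250000 (Oar_v3.1) was taken, a window of 200 kb around the gene, which lies at about chr2:118140000-118150000. Peaks of different fetuses that shared at least 1 bp were merged, and this gave 61 regions near MSTN of 706111 in the whole genome. The 10 kb assigned to the gene is called the gene interval here. Exon positions in Oar_v3.1 were not used here, so peaks could not be assigned to the promoter, exons or introns of MSTN.

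The fetuses came from Polypay ewes fed either hay (alfalfa haylage) or corn from mid-gestation until the fetuses were collected in late gestation. There were 8 fetuses per diet, each measured in 1 library, and they are named by diet and sample number. The corn-fed ewes also received a little haylage and a supplement, energy intake was matched between diets, and no other diet was among the samples used here. Other intakes were not matched. Per the study, crude protein, methionine, serine and choline were higher with hay, and folate was higher with corn. Most fetuses were twins, and the labels do not tell which samples share a ewe, so the tests over fetuses treat twins as separate. Diet was given to ewes, and each diet had fewer ewes than its 8 fetuses. The p-values and SEs below can therefore be too small. The samples were whole muscle tissue, and a methylation peak cannot be assigned to one of the cell types in it.

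Myostatin is a secreted growth factor of the TGF-beta family that is made mainly by skeletal muscle. It is synthesised as a precursor, cleaved to a mature dimer, and signals through activin type II receptors to SMAD proteins to restrain the number and size of muscle fibres. Animals that lack working myostatin are heavily muscled, as in double-muscled cattle, and in sheep the gene is a known target of selection for meat yield. In the RefSeq annotation of the newer sheep assembly ARS-UI_Ramb_v3.0, the nearest protein-coding neighbours of MSTN are C2H2orf88 and ORMDL1, and an annotated transcript span of the mismatch repair gene PMS1 covers it. Whether these genes reach into the window in Oar_v3.1 was not examined.

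Methylated fragments were captured on a methyl-CpG binding domain protein, and DNA with dense clusters of methylated CpG sites is retained best by it. Peaks were called by the authors in each fetus separately. The score used below is −log10 of the value deposited for a peak. That value has no header and was read as a p-value from its range, so a higher score is taken as a stronger call. Depth and read counts are not in the files analysed here, and a region without a peak is one where no peak was called, not one shown to be unmethylated. A fetus had between 261331 and 519923 peaks in the whole genome, and the mean was 405167 ± 88355 in hay (SD, n = 8) against 396176 ± 70011 in corn (SD, n = 8; exact permutation test, p = 0.820).

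The window held 511 peaks over the 16 fetuses. Their scores ran from 0.890 to 5.35 with a median of 1.41, against a median of 1.47 over all 6410742 peaks of the series, and 57.9% of them lay under that genome-wide median. The 61 merged regions were 102 to 2779 bp wide with a median of 576 bp. Together they covered 36784 bases, or 18.4% of the window. A peak in all 16 fetuses was found in 5 of the 61 regions (8.20%), where 12.5% of all merged regions had one. Another 19 regions had a peak in 9 to 15 fetuses, 19 in 2 to 8, and 18 in 1 fetus. The share seen in 1 fetus was 29.5%, beside 27.5% genome-wide. The median width was 194 bp for regions of 1 fetus, 261 bp for 2 to 8 fetuses, 833 bp for 9 to 15 and 1348 bp for all 16, a rise that merging more peaks produces in part by itself. The median score over the fetuses with a peak was taken in each region, and its median over regions was 1.24, 1.23, 1.42 and 2.27 in the same order. By this measure the regions of 1 fetus and of 2 to 8 fetuses had nearly equal medians, and the regions called in every fetus had the highest values. This order was also in part built in. A stronger site is more readily called in every fetus, and the highest peak of each fetus in a region was used, of which wide regions can hold several.

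Peaks were unevenly spread along the window. The 20 kb from chr2:118110000 to 118129999 was touched by 23.1% of the 511 peaks and by 3 of the 5 regions called in every fetus. Each fetus from a hay-fed ewe had 7.13 ± 1.55 peaks there (SD, n = 8) and each fetus from a corn-fed ewe 7.63 ± 1.41 (SD, n = 8). Of the 10 consecutive stretches of 20 kb into which the window was divided, the one with the fewest peaks was chr2:118070000-118089999, touched by 16 peaks in 10 of the 16 fetuses. Hay fetuses had 0.5 ± 0.53 peaks there (SD, n = 8) and corn fetuses 1.5 ± 1.07 (SD, n = 8), a difference above the SD in hay and below that in corn. The 20 kb that contain the gene interval, chr2:118130000-118149999, were touched by 43 peaks (8.42%) and no region called in every fetus. There the mean was 2.13 ± 1.55 peaks in hay (SD, n = 8) and 3.25 ± 1.39 in corn (SD, n = 8), which differed by less than the SD within either diet. The SD gives the spread of single fetuses and not the error of a mean. The stretches were not tested for a difference between diets.

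**Figure D1:**
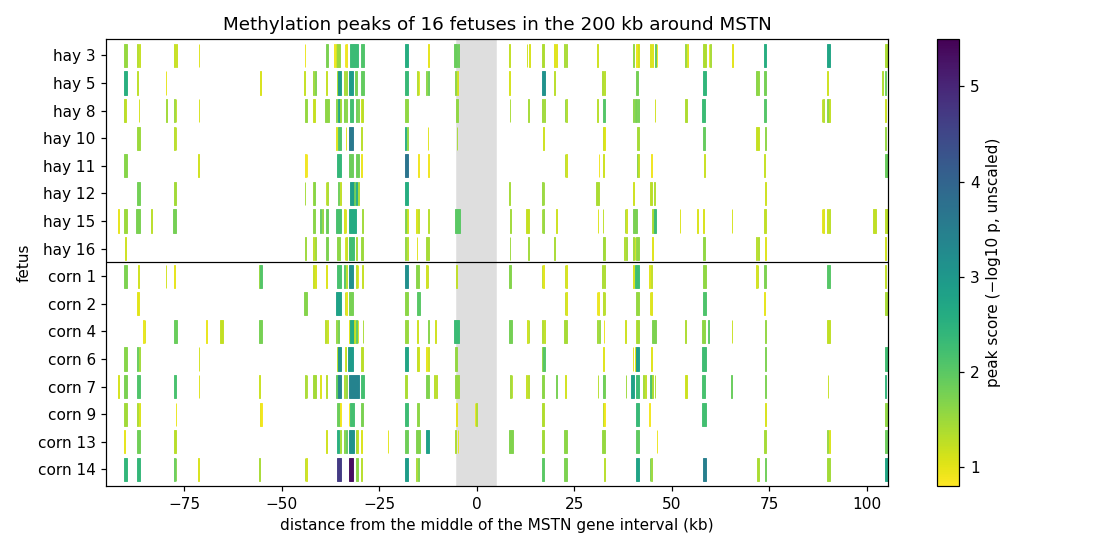
Position (x axis, distance from the middle of the gene interval in kb) of every peak in each fetus (rows, hay above the line and corn below), coloured by its unscaled score (−log10 p). The grey band is the 10 kb gene interval, which holds peaks at its lower edge and 2 peaks of corn fetus 9, while 2 of the regions seen in every fetus lie at -35.4 and -31.6 kb.

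The gene interval itself had fewer peaks than the median stretch of its length. It was touched by 9 peaks in 8 fetuses, where the median of 258726 tiles of 10 kb over the genome was 19 peaks and 30.01% of tiles had fewer. In hay, fetuses 3, 5, 8 and 15 had 1 peak each and the other four had none. In corn, fetuses 4, 7 and 13 had 1 peak, fetus 9 had 2, and the other four had none. A peak was thus present in 4 of 8 fetuses of each diet (Fisher's exact test, p = 1). Most of this signal came from 1 region at the edge of the interval, chr2:118139240-118140787, seen in 5 hay and 6 corn fetuses, of which hay fetus 10 and corn fetuses 1, 6 and 9 had a peak there that ended short of the interval. Its unscaled scores among fetuses with a peak were 1.41 to 2.01 for hay and 0.995 to 2.29 for corn. The ranges of the diets overlapped, and the genome-wide limma fit gave a difference in log2 score (hay minus corn) of -0.05 ± 0.31 (SE; adjusted p = 1).

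Deeper in the interval, peaks were called in 1 fetus. Corn fetus 9 had a peak at chr2:118144438-118144628 with a score of 0.917 and one at chr2:118144758-118145024 with a score of 1.37, both below the genome-wide median peak score of 1.47. The other 15 fetuses had no call at either place. The number of peaks in the interval averaged 0.5 ± 0.53 (SD, n = 8) in hay and 0.625 ± 0.74 (SD, n = 8) in corn (exact permutation test, p = 1). Without corn fetus 9, which had 2 of the 5 corn peaks, the sign of this difference turned, to 0.0714 peaks more in hay.

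Between the edge region and the next region above, no stretch was called in more than 1 fetus over 12568 bp (chr2:118140788-118153355), which takes in most of the gene interval. Gaps of this length were also found elsewhere, as 7.60% of the gaps between regions called in at least 2 fetuses were as long or longer, the median gap was 1895 bp, and 3 other gaps in the window were longer, up to 15268 bp. On the upper side, the nearest region was chr2:118153356-118154190, 3.36 kb from the interval, called in 6 hay and 4 corn fetuses (difference in log2 score 0.28 ± 0.33, SE; limma, adjusted p = 1). On the lower side, beyond the edge region, the nearest was chr2:118134348-118134669, called in corn alone, in 2 fetuses (limma, adjusted p = 0.919). These flanking regions were picked for their place after their values had been seen.

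The 5 regions called in all 16 fetuses formed a cluster of 3 below the gene and a pair above it. The cluster spanned 18557 bp, from 29.7 kb to 12.5 kb below the gene interval counted from the nearer end of each region. For comparison between fetuses the highest score of each fetus was divided by a factor for that fetus (0.765 to 1.38) taken from the 88488 regions common to all fetuses, and log2(scaled score + 1) was analysed.

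The widest and strongest was chr2:118112066-118114844, 2779 bp wide and 25.2 kb below the gene interval. Scaled scores there were 1.98 to 3.79 in hay, with a median of 2.74, and 1.78 to 3.87 in corn, with a median of 2.98. The highest unscaled score of the window, 5.35, was that of corn fetus 14. The ranges of the diets overlapped almost fully, and the difference in log2 score was 0.01 ± 0.14 (SE; limma, adjusted p = 1). In mean scaled score (2.80) this region exceeded 66.4% of the regions called in every fetus genome-wide.

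At chr2:118108921-118110268, 29.7 kb below the gene interval, scaled scores were 1.86 to 2.68 in hay (median 2.36) and 1.57 to 3.39 in corn (median 2.41). The corn fetuses were spread more widely on both sides of the hay fetuses, with a difference in log2 score of -0.08 ± 0.15 (SE; limma, adjusted p = 1). At chr2:118126544-118127477, 12.5 kb below it and the closest of the 5 to the gene, the scaled scores were 1.58 to 3.91 in hay (median 2.26) and 1.30 to 2.97 in corn (median 1.94). Here 3 hay fetuses, 3, 11 and 12, were above every corn fetus, but the other hay fetuses lay within the corn range, and the difference in log2 score was 0.23 ± 0.16 (SE; limma, adjusted p = 0.919).

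Above the gene, chr2:118184568-118186690 (34.6 kb from the interval) had scaled scores of 1.41 to 2.02 in hay (median 1.76) and of 1.54 to 2.61 in corn (median 1.99). The medians differed in the direction of corn while the ranges overlapped, and the difference in log2 score was -0.16 ± 0.17 (SE; limma, adjusted p = 1). This merged region was not a single site common to all fetuses. The only peak of hay fetus 12 there, chr2:118185128-118185230, shared no base with that of hay fetus 5, chr2:118185800-118186433. A peak of hay fetus 15, chr2:118184965-118186030, joined the lower and upper parts. The last region, chr2:118218702-118219277 (68.7 kb above), was 576 bp wide and the weakest of the 5. Its scaled scores were 1.24 to 3.12 in hay (median 1.48) and 0.914 to 1.99 in corn (median 1.36), with a difference in log2 score of 0.16 ± 0.20 (SE; limma, adjusted p = 1). Its mean scaled score, 1.55, exceeded that of 1.07% of the regions called in every fetus genome-wide, which places it among the weakest of them. In this region too, the peaks of corn fetus 2 (chr2:118218763-118218915) and hay fetus 16 (chr2:118218963-118219106) shared no base. The 5 regions together covered 7760 bases, or 3.88% of the window.

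**Figure D2:**
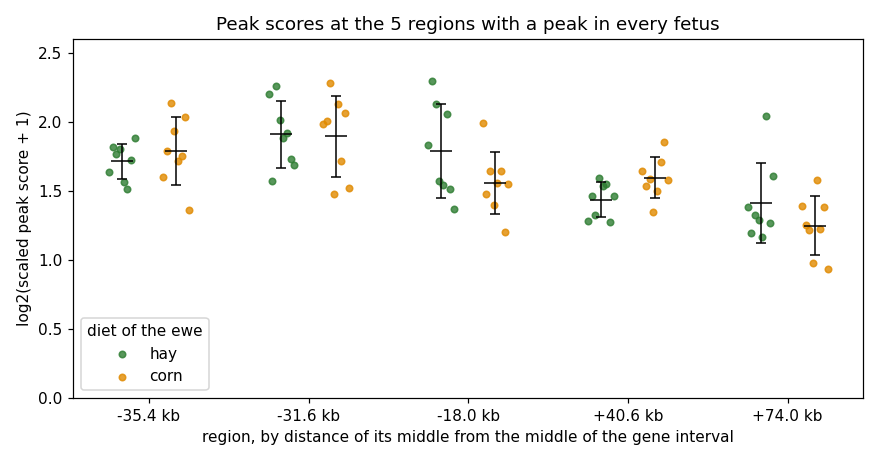
Peak score, as log2(scaled score + 1), of each fetus (points) at the 5 regions called in all 16 fetuses, placed by distance of the region's middle from the middle of the gene interval. Bars give the mean and SD of 8 fetuses per diet, and hay and corn overlap at each region.

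For the comparison of diets, 43 of the 61 regions were called in at least 2 fetuses, as were 72.5% of all merged regions, and entered the genome-wide limma fit over 512238 regions. None of the 43 reached an adjusted p under 0.1, a call made for 3 of all regions tested (0.000586%). None reached an unadjusted limma p under 0.05, where 3.16% of all regions did (1.43% higher in hay and 1.73% higher in corn), and the smallest unadjusted p in the window was 0.0520. Of the 43 regions, 14 had a peak in more hay fetuses, 11 in more corn fetuses and 18 in equal numbers. The mean log2 score was higher in hay at 26 and higher in corn at 17, and their median difference was 0.03, against 0.02 over all regions, of which 53.9% were higher in hay. The 18 regions of 1 fetus comprised 8 of hay and 10 of corn. How often such splits between the diets occur over all regions is not given here, so these counts cannot be read as particular to the window. The same holds for the excesses of hay or corn fetuses at the single regions described above and below. The fit used scores of called peaks, whereas the study tested aligned reads with edgeR. The study's test covered the whole genome, and its list of regions is not set against the window here. A difference in reads at these regions was thus not tested here.

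The largest excess of corn fetuses was at chr2:118089108-118089903, 50.1 kb below the gene interval. A peak was called there in corn fetuses 1, 4, 7, 9 and 14 and in hay fetus 5. Scaled scores ranged from 0 to 2.26 in corn, with a median of 0.929, and the hay peak had a scaled score of 0.850. The diets overlapped, since 3 corn fetuses were without a peak, and the difference in log2 score was -0.67 ± 0.34 (SE; limma, adjusted p = 0.919). This was the smallest p of the window. An unadjusted p under 0.05 was obtained for this region with other scalings, codings or filters, and in no fit did its adjusted p fall below 0.1.

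Corn fetuses led by 3 at each of a further pair of regions. One was chr2:118129499-118130323, 9.68 kb below the gene interval, called in 7 corn fetuses and 4 hay fetuses. Scaled scores ran from 0 to 2.03 in corn (median 1.42) and from 0 to 1.45 in hay (median 0.478), with a difference in log2 score of -0.57 ± 0.32 (SE; limma, adjusted p = 0.919). The other was chr2:118167412-118168218, 17.4 kb above the gene interval, called in 6 corn fetuses and 3 hay fetuses, with a difference in log2 score of -0.40 ± 0.35 (SE; limma, adjusted p = 0.969). It was picked out after its values had been seen.

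Hay fetuses led by 3 at each of 3 regions. At chr2:118164873-118165075, 14.9 kb above the gene interval, hay fetuses 3, 5 and 16 had a peak with scaled scores up to 1.70 and no corn fetus had one (difference in log2 score 0.45 ± 0.24, SE; limma, adjusted p = 0.919). At chr2:118102911-118103704, 36.3 kb below it, 5 hay and 2 corn fetuses had a peak, and the median scaled score was 1.28 in hay and 0 in corn (limma, adjusted p = 0.919). At chr2:118100664-118101532, 38.5 kb below it, the counts were 6 hay and 3 corn fetuses (limma, adjusted p = 0.919). A further region of this stretch, chr2:118106124-118107031, had a peak in 6 hay and 4 corn fetuses (difference in log2 score 0.52 ± 0.33, SE; limma, adjusted p = 0.919). At each of these 4 regions at least 2 hay fetuses were without a peak, so hay and corn overlapped at 0. The 20 kb that hold 3 of them (chr2:118090000-118109999) had 4.88 ± 1.64 peaks per hay fetus (SD, n = 8) and 3.25 ± 1.83 per corn fetus (SD, n = 8). This difference was smaller than the SD of single fetuses within either diet, and it was not tested.

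**Figure D3:**
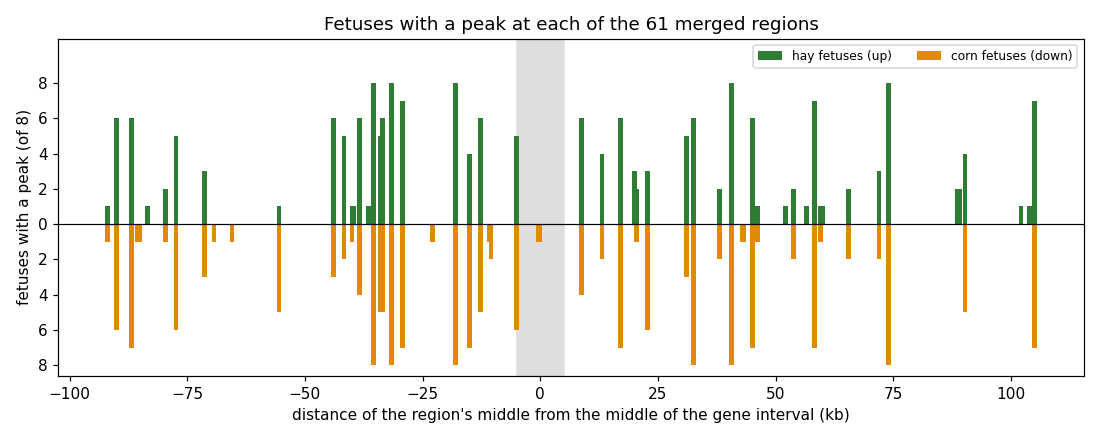
Number of hay fetuses (bars up) and corn fetuses (bars down), of 8 each, with a peak at each of the 61 merged regions, by distance of the region's middle from the middle of the gene interval in kb. Counts were equal at 18 regions, higher in hay at 22 and higher in corn at 21. The largest excess was 3 fetuses for hay and 4 for corn, and bars are drawn wider than most regions.

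Over the whole window, the number of peaks per hay fetus was 20 at the lowest, 33 at the median and 44 at the highest, with a mean of 32.4 ± 10.4 (SD, n = 8). For corn these were 21, 27 and 47, with a mean of 31.5 ± 9.24 (SD, n = 8). The difference of 0.875 peaks was smaller than the SD within either diet (exact permutation test, p = 0.879), and its sign changed when any of 5 fetuses was left out. Bases under peaks averaged 11632 ± 4160 (SD, n = 8) in hay and 12824 ± 3401 (SD, n = 8) in corn, or 5.82% and 6.41% of the window (exact permutation test, p = 0.532). Of 7 measures of the window and gene interval that were adjusted together, 1 had an unadjusted p under 0.05. Presence of a peak in the interval and peaks wholly inside it were also tested, outside this set. The median width of the window's peaks was 245 ± 12.3 bp (SD, n = 8) in hay and 300 ± 81.9 bp (SD, n = 8) in corn (exact permutation test, p = 0.0191, adjusted p = 0.134 over the 7). This measure was added after the data were seen. The corn value rested on fetuses 13 and 14, with 418 and 445 bp. Without them the difference was -11.5 bp (exact permutation test, p = 0.0819). Peaks of the whole genome had median widths of 283 ± 37.1 bp (SD, n = 8) in hay and 351 ± 89.3 bp (SD, n = 8) in corn (exact permutation test, p = 0.0710). The widest genome-wide medians were those of corn fetuses 14, 9 and 6, at 508, 440 and 405 bp, while corn fetus 13 had 295 bp.

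The number of peaks near MSTN followed the number of peaks a fetus had in the whole genome. Over 16 fetuses Pearson's r was 0.857 (permutation test, p = 6e-05) and Spearman's rho 0.874 (permutation test, p = 4e-05), and this was the one relation examined across fetuses. Without hay fetuses 11 and 15, the farthest from the median in total peaks, r was 0.838 (permutation test, p = 0.00026). The relation was present within each diet, with r = 0.833 in hay (n = 8, exact permutation test, p = 0.0134) and r = 0.895 in corn (n = 8, exact permutation test, p = 0.00288). Expressed per 100000 peaks of the fetus, the window held 7.91 ± 1.45 peaks in hay (SD, n = 8) and 7.85 ± 1.23 in corn (SD, n = 8), a difference smaller than the SD within either diet (exact permutation test, p = 0.933). Hay fetus 12 had the lowest value, 5.67, and lacked a peak at 4 of the 9 regions that were called in at least 14 fetuses; there were 8 such absences over all fetuses.

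**Figure D4:**
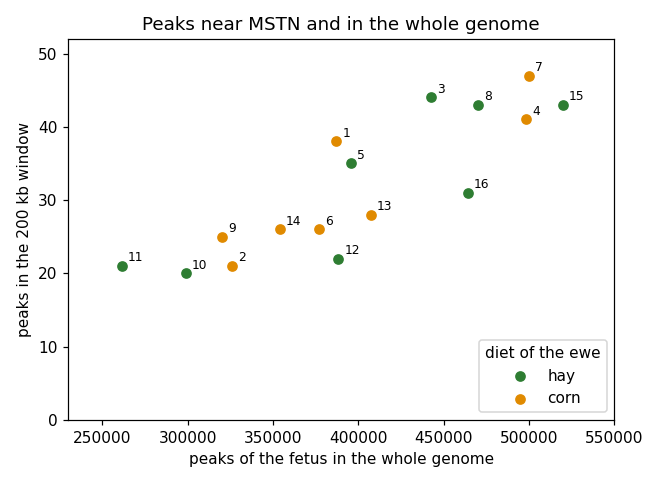
Peaks in the 200 kb window (y axis) against all peaks of the same fetus (x axis), each point 1 fetus labelled with its sample number. Window peaks increased with all peaks in both diets (r = 0.857 over 16 fetuses), and hay and corn points are intermixed.

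Compared with the rest of the genome, the surroundings of MSTN were moderately rich in peaks. Among 12918 windows of 200 kb, the median was 380 peaks over all fetuses with quartiles of 244 and 644, and 65.2% had fewer than the 511 at MSTN. For regions called in every fetus, the median was 4 per window and 56.6% had fewer than 5. The adjacent 200 kb on the lower side also held 511 peaks and 6 regions called in every fetus, and those on the upper side 584 peaks and 7 such regions. One step further out, the next 200 kb held 1010 peaks and 20 such regions on the lower side, and 730 peaks and 6 such regions on the upper side. The window thus had no more peaks than any of these 4 neighbouring windows.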

How the data were processed

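The authors extracted DNA from fetal LD muscle, enriched it with the MethylMiner kit and sequenced paired-end reads. Per the labels and the study's methods, reads were trimmed with Trimmomatic 0.33, aligned to Oar_v3.1 with BWA-mem 0.7.15 and freed of duplicates with Picard 1.107, and peaks were called per fetus with ChIPseeqer. A threshold or input control is not given in the sources used here. The deposited lists give each peak's chromosome, start, end and 1 value, read as a p-value because it lies between 0 and 0.135. It was 0 at 1315 peaks, none of them in the window, and such values were set to 1e-100.

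The score was −log10 of the p-value. Peaks sharing at least 1 bp were merged, regions called in 2 or more fetuses were kept, and the highest score per fetus was scaled by the median ratio over regions called in every fetus. log2(scaled score + 1), 0 without a peak, was fitted with limma 3.58.1 in R 4.3.3 (eBayes with trend) over all 512238 regions, with Benjamini-Hochberg adjustment and the study's threshold of 0.1. Single values were compared with two-sided exact permutation tests over 12870 assignments (smallest p 0.000155) in Python 3.11.15, and correlations with 100000 resamples or, within diets, all permutations. The limma fit was checked on shuffled rows of these data with added differences larger than any in the window. The exact permutation test was checked on simulated counts. The other steps were not checked in this way, nor was the power for differences of the size seen here.

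Named regions were those in the gene interval, those called in every fetus, the 5 with the smallest limma p, those with the largest excess of either diet and the widest. The window and these rules were chosen with earlier results of these data known. Coordinates are as deposited. No sequence is shown because no genome of Oar_v3.1 was used here. Dam, sex and lane are not given for the numbered samples and were not modelled. Alternatives covered peak and region filters, scaling, pseudocount, coding, overlap, window size and leaving out each fetus.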

Additional observations from a re-analysis of the deposited data

Results flagged for a closer look

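Among 46 sets of 8 values examined, 6 had a fetus whose gap to the nearest other fetus relative to the range passed the critical value of Dixon's outlier test, where chance gives about 1 in 20. Of these, 3 arose because a single fetus of the diet had a peak: hay fetus 5 at chr2:118089108-118089903 (scaled score 0.850), and corn fetus 9 at chr2:118144438-118144628 (0.779) and chr2:118144758-118145024 (1.17), the places within the MSTN gene interval. At chr2:118218702-118219277, called in every fetus, hay fetus 3 had a scaled score of 3.12, the next hay fetus 2.04 and the median hay fetus 1.48. Hay fetus 15 had 788 bases of the gene interval under its peak, the next hay fetus 357, and 4 hay fetuses had 0. Hay fetus 16 had a median peak width of 216 bp in the window, against 246 bp in the next fetus.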

How the results depend on the processing

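No window region had an adjusted limma p under 0.1 in any of the alternatives, and the differences between diets in window peaks, share, bases and gene interval peaks stayed on the same side of 0.05. The count of window regions with an unadjusted limma p under 0.05, 0 as reported, was 2 with unscaled scores and 1 with a pseudocount of 5, with presence of a peak, with at least 3 fetuses per region and with peaks above the 25th percentile of score. It was 0 to 2 with 1 fetus left out. The region behind these calls was chr2:118089108-118089903, higher in corn, in 4 of these 5 settings. The other call with unscaled scores was chr2:118129499-118130323, also higher in corn. With peaks above the 25th percentile the call was chr2:118106124-118107031, higher in hay. With 1 fetus left out, each of these regions was called in some fits, as was chr2:118164873-118165075, higher in hay. The cause was not tested. Regions called in every fetus fell from 5 to 3 with peaks above the 25th percentile, by construction, since weak calls are dropped. Their number was 4 without hay fetus 15, and it stayed at 5 when any other single fetus was left out. Leaving out 1 fetus moved the difference in window peaks between -0.786 and 3.09, with a negative sign without hay fetuses 3, 8 or 15 or corn fetuses 2 or 9. It moved the window share between -0.234 and 0.376 per 100000 peaks, bases between -2033 and -375, gene interval peaks between -0.214 and 0.0714, and the median width between -63.4 and -34.5 bp. Without corn fetuses 13 and 14 together, an alternative chosen after seeing the data, the width difference was -11.5 bp. Counting peaks wholly inside the gene interval, also chosen later, left a difference of -0.25 peaks. Each ewe received either hay or corn, so the fetuses of the diets were not paired and no paired analysis was run. Depth is unknown, so a missing peak cannot be told apart from shallow sequencing.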

Other observations

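Fetuses shared fewer than all of their regions near MSTN, whatever the diet. Any pair had between 31.4% and 80.0% of the window's regions called in either fetus in common, with a median of 48.4%. The range was 34.2% to 66.7% over 28 hay pairs, 31.4% to 72.4% over 28 corn pairs and up to 80.0% over 64 mixed pairs. Pairs share fetuses and twins, so these are given with no test. Of the 18 regions seen in 1 fetus, 5 belonged to hay fetus 15, 4 to corn fetus 4 and 3 to corn fetus 7, the fetuses with the most peaks in the genome.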
